A study of Homo sapiens with 12 samples.

Results

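The response of control cells to DOT1L inhibition was followed across all genes in 4 of the 12 RNA-seq libraries of the series, those whose raw count columns carry the control guide sgLuc. Of the 58735 genes in the count table, 15060 had enough counts to be tested. The cells were OCI-AML2, an established line of human acute myeloid leukemia whose KMT2A (MLL) gene is rearranged, grown in RPMI medium with serum. They had been infected with a lentivirus carrying sgLuc, a guide against luciferase that has no target in the human genome, and the labels give their genotype as WT. They then received DMSO, the solvent, or 1 µM SGC0946 for 6 days, with 2 libraries for each treatment. The other 8 libraries carried the guides sgUTX_2 or sgUTX_4 against KDM6A (UTX), with the same treatments and 2 libraries per combination, and serve here only for values side by side. Nothing in the labels states whether replicate libraries are separate cultures or clones. The p-values therefore rest on the spread between libraries, which may be technical.

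DOT1L is the methyltransferase that places methyl groups on lysine 79 of histone H3 (H3K79), a mark of transcribed gene bodies. In leukemias with a rearranged KMT2A gene, the MLL fusion protein recruits DOT1L and elongation factors to the HOXA genes, MEIS1 and other genes of a progenitor programme, and their expression depends on the enzyme. SGC0946 is a small molecule that competes with the methyl donor in the DOT1L pocket, and loss of H3K79 methylation and of target transcripts takes days in culture.

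The 4 sgLuc libraries held 15480493 to 19536885 counts. Cytoplasmic ribosomal protein genes held 17.8% and 19.0% of all counts with DMSO and 13.04% and 13.2% with SGC0946, against 11.1% to 12.2% in the 8 sgUTX libraries. Levels are given in CPM, counts scaled to a common library size with TMM factors, in the order of replicates 1 and 2. They compare 1 gene between libraries, not genes with each other. The label of a myeloid leukemia line was checked against 11 defining markers, whose summed level was 2845 and 2659 CPM with DMSO and 13774 and 13592 CPM with SGC0946. Of the 11, 7 were higher and 3 (CD38, CEBPA and FLT3) lower, and most of the rise of the sum is that of LYZ, at 389.9 and 322 CPM with DMSO and 9453 and 9246 CPM with SGC0946. KIT, the stem cell factor receptor, was near 0 in all 4 libraries (0.187 and 0.606 CPM with DMSO, 0.241 and 0.61 CPM with SGC0946). Of 18 erythroid markers 14 had no count in any sgLuc library, among them all globin genes of the list, and the summed level of the list was 32.9 and 36.1 CPM with DMSO and 26.3 and 30.2 CPM with SGC0946. The 12 megakaryocyte markers summed to 19.0 and 22.6 CPM and to 15.7 and 16.02 CPM, with PF4, PPBP and GP1BB at 0, and the 18 lymphoid markers to 48.5 and 46.0 CPM and to 54.8 and 49.8 CPM, with CD8B, MS4A1 and TRBC1 at 0.

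At an edgeR adjusted p under 0.05, 53.1% of the genes tested changed with SGC0946: 4050 (26.9%) were higher and 3950 (26.2%) lower. In 38.6% both SGC0946 libraries lay above both DMSO libraries and in 37.8% below both. At least 2-fold changes were unequal in number, with 1537 genes (10.2%) higher and 737 (4.89%) lower, and the median log2 fold change over all genes tested was 0.00. Of 1657 long non-coding RNA genes 15.51% were called higher and 14.5% lower, and of 12465 protein-coding genes 29.4% and 28.7%. The values rest on bulk RNA, in which fewer cells of a type and less RNA per cell cannot be told apart. With no scaling beyond library size the calls split into 4816 higher and 3152 lower (60.4% higher, against 50.6% in the TMM fit), with a median over all genes of 0.09. The counts of the groups below are to be read against these shares (plot of called shares by gene group).

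**Figure D1:**
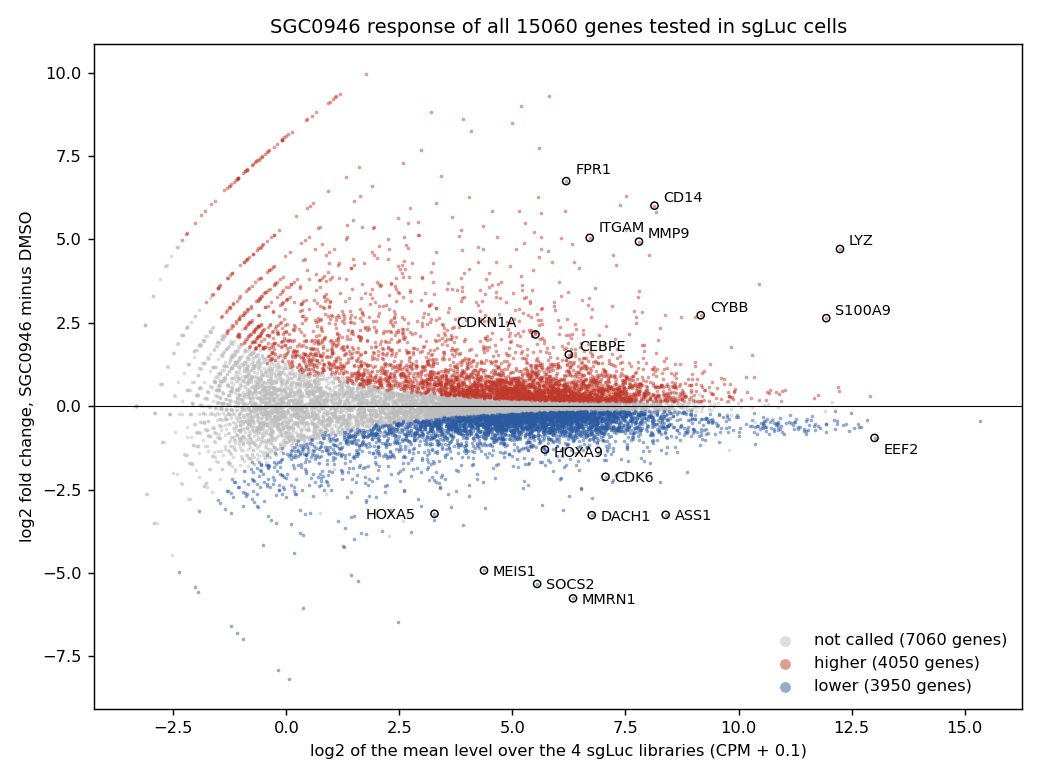
Log2 fold change of SGC0946 against DMSO in sgLuc cells (vertical axis) against the log2 of the mean level over the 4 sgLuc libraries (horizontal axis, CPM with 0.1 added), 1 point per gene for the 15060 genes tested; the slanted rows at the left are genes with few or no counts in a group, whose fitted fold depends on the prior count. Red points are the 4050 genes called higher, blue the 3950 called lower and grey those not called, and CD14 and FPR1 lie above 6 and MEIS1, SOCS2 and MMRN1 near or below -5.

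**Figure D2:**
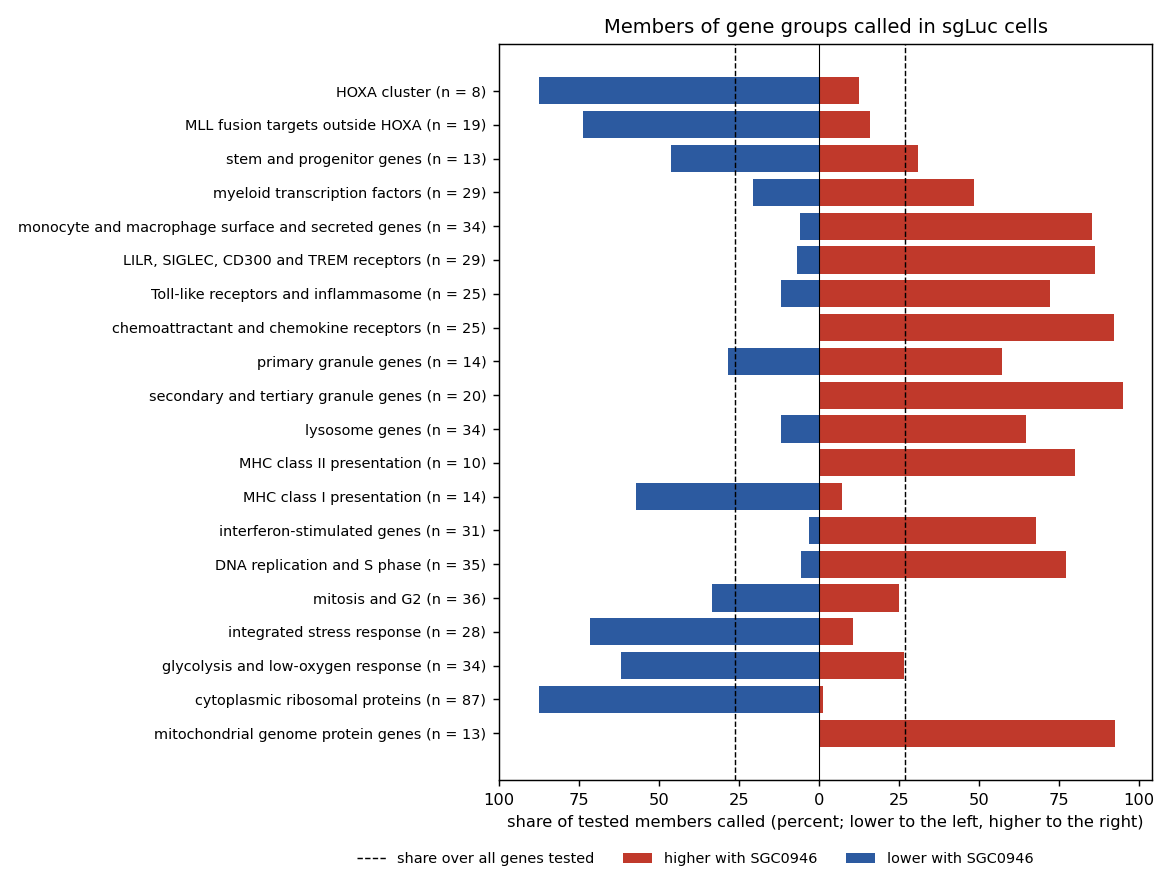
Share of the tested members of 20 gene groups called higher (red, to the right) or lower (blue, to the left) with SGC0946 in sgLuc cells, in percent, with the number tested in brackets. Dashed lines mark the shares over all genes tested, 26.9% higher and 26.2% lower; the HOXA cluster and the ribosomal protein genes extend to the left, the later granule genes and chemoattractant receptors to the right.

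The transcript of the targeted enzyme itself was lower. DOT1L (ENSG00000104885, chr19:2164149-2232578, plus strand) stood at 126 and 126 CPM with DMSO and 97.8 and 93.1 CPM with SGC0946 (log2 fold change -0.40, SE 0.07, adjusted p = 4.26e-06), and 11.5% of its exonic bases are shared with other genes. Such shares, here and below, count the bases shared with any other gene, and the gene named, here AC004490.1, holds the largest part. An inhibitor need not change its target's transcript, so this level does not measure the block of the enzyme. Of 17 genes of the DOT1L complex and its elongation partners, all tested, 3 rose and 8 fell, with a median of -0.12. This balance depended on the settings, with 6 higher and 5 lower with library size only (median -0.03), 5 and 6 with no filter on low counts, and 4 and 5 without DMSO replicate 1 or without SGC0946 replicate 1. MLLT3 (AF9) and AFF1 (AF4), partners that link DOT1L or elongation factors to chromatin and that occur as fusion partners of KMT2A, fell, with log2 fold changes of -0.65 and -0.74. ELL2, a subunit of elongation complexes that releases paused polymerase, went the other way and by more. It stood at 11.7 and 8.56 CPM with DMSO and 62.7 and 57.4 CPM with SGC0946 (log2 fold change 2.55, SE 0.12, adjusted p = 2.90e-19). All fold changes and positions of genes are from the same fit and from GENCODE 29 on GRCh38.

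Most of the HOXA genes and MLL fusion targets that could be tested fell. Of the 11 HOXA genes 8 could be tested, and 7 of these fell by at least 2-fold, with a median log2 fold change of -1.37. HOXA genes encode homeodomain factors that keep blood progenitors immature. HOXA9 (ENSG00000078399, chr7:27162435-27175180, minus strand) stood at 72.0 and 77.6 CPM with DMSO and 30.3 and 30.3 CPM with SGC0946 (log2 fold change -1.30, SE 0.09, adjusted p = 8.61e-15). It shares 27.04% of its exonic bases with other genes, the largest part with HOXA10-AS. HOXA10 was at 59.6 and 56.3 CPM with DMSO and 23.9 and 22.9 CPM with SGC0946 (log2 fold change -1.31). HOXA11 was at 20.5 and 21.7 CPM with DMSO and 9.78 and 8.48 CPM with SGC0946 (log2 fold change -1.21). In all 3 genes both SGC0946 libraries lay below both DMSO libraries. HOXA10 shares 26.3% of its exonic bases with other genes, the largest part with HOXA10-AS. HOXA11 shares 31.1%, the largest part with HOXA11-AS. Reads of these antisense genes may be counted with those of HOXA10 and HOXA11 if the counting did not use strand. The falls were larger in the middle of the cluster. HOXA5 was at 17.8 and 16.9 CPM with DMSO and 1.57 and 2.11 CPM with SGC0946 (log2 fold change -3.23, SE 0.22, adjusted p = 7.74e-15). HOXA7 was at 3.86 and 3.86 CPM with DMSO and 0.362 and 0.333 CPM with SGC0946 (log2 fold change -3.45, SE 0.47, adjusted p = 1.43e-07). However, HOXA7 is low and shares 62.5% of its exonic bases with other genes, the largest part with HOXA-AS3. HOXA3 was at 3.55 and 3.79 CPM with DMSO and 1.21 and 1.497 CPM with SGC0946 (log2 fold change -1.43). No HOXB gene of the 10 in the list had enough counts to be tested.

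Outside the cluster, 14 of the 19 MLL fusion targets tested fell and 3 rose (22 listed, median -1.33). The cofactors that bind DNA together with HOX proteins were among the steepest. MEIS1 (ENSG00000143995, chr2:66433452-66573869, plus strand) was at 38.8 and 41.0 CPM with DMSO and 1.87 and 0.776 CPM with SGC0946 (log2 fold change -4.93, SE 0.19, adjusted p = 2.26e-21). PBX3 was at 189 and 188 CPM with DMSO and 27.4 and 27.9 CPM with SGC0946 (log2 fold change -2.77, SE 0.08, adjusted p = 9.77e-26). RUNX2, a Runt family factor, stood at 85.7 and 92.1 CPM with DMSO and 9.78 and 12.8 CPM with SGC0946 (log2 fold change -2.97, SE 0.11, adjusted p = 2.93e-22). CDK6, the kinase that pairs with D cyclins, was at 222 and 211 CPM with DMSO and 50.9 and 48.8 CPM with SGC0946 (log2 fold change -2.12). FLT3, the receptor of a progenitor growth factor, was at 114 and 116 CPM with DMSO and 37.5 and 38.8 CPM with SGC0946 (log2 fold change -1.59). In each of these genes both SGC0946 libraries lay below both DMSO libraries by more than their own spread. MEF2C (-1.56), ZEB2 (-1.46), MYB (-1.33), SATB1 (-1.29) and BCL2 (-1.35), 4 transcription or chromatin factors and a survival protein, also fell. RUNX1, the master factor of definitive blood formation, was higher instead, at 128 and 116 CPM with DMSO and 191 and 192 CPM with SGC0946 (log2 fold change 0.65, SE 0.06, adjusted p = 6.45e-11). JMJD1C, a reported dependency of these leukemias, did not pass the test (0.09, edgeR adjusted p = 0.29).

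**Figure D3:**
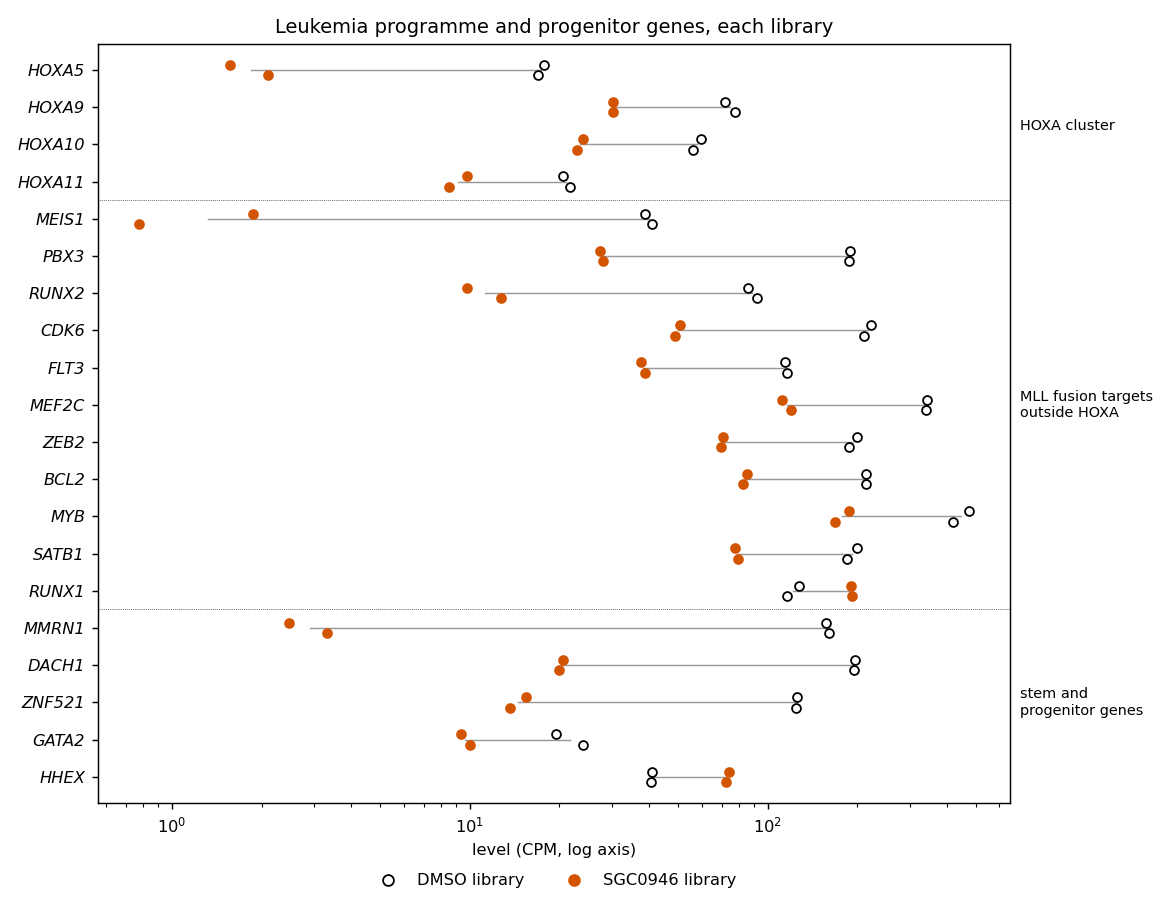
Level in each sgLuc library (CPM, log axis) of HOXA genes, MLL fusion targets and stem and progenitor genes, with open circles for DMSO, filled circles for SGC0946 and grey lines joining the group means. The SGC0946 circles lie left of the DMSO circles for every gene drawn except RUNX1 and HHEX, and farthest for MMRN1 and MEIS1.

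Leaving aside genes whose mean was under 1 CPM in either group, the largest fall was outside the fusion target list. MMRN1 (ENSG00000138722, chr4:89879532-89954629, plus strand), which encodes multimerin 1, a platelet and endothelial protein also expressed in immature leukemia cells, was at 157 and 161 CPM with DMSO and 2.47 and 3.33 CPM with SGC0946 (log2 fold change -5.76, SE 0.11, adjusted p = 3.97e-30). SOCS2 (ENSG00000120833, chr12:93569814-93583487, plus strand), a listed fusion target and a feedback inhibitor of JAK and STAT5 signalling, stood at 90.0 and 92.0 CPM with DMSO and 2.29 and 2.22 CPM with SGC0946 (log2 fold change -5.33, SE 0.12, adjusted p = 3.85e-28). STAT5A and STAT5B, the factors that switch SOCS2 on downstream of cytokine receptors, were lower too, by smaller amounts (-1.19 and -0.79). Of 21 tested genes of the SOCS, PIM and STAT families 9 rose and 8 fell, so that no direction held across that list. PIM1, a kinase, was among those that rose, at 19.4 and 16.4 CPM with DMSO and 53.2 and 60.0 CPM with SGC0946 (log2 fold change 1.66, SE 0.13, adjusted p = 2.24e-10). CISH and PIM3, of the same list, were among those that fell. DACH1, a nuclear cofactor, was at 196 and 195 CPM with DMSO and 20.6 and 19.96 CPM with SGC0946 (log2 fold change -3.27, SE 0.07, adjusted p = 1.60e-28). ZNF521, a zinc finger factor of immature cells, was at 126 and 124 CPM with DMSO and 15.45 and 13.6 CPM with SGC0946 (log2 fold change -3.11). BMI1, the Polycomb subunit that keeps progenitors self-renewing, fell (log2 fold change -1.33). It shares 23.35% of its exonic bases with other genes, the largest part with the readthrough gene COMMD3-BMI1. EZH2, the methyltransferase of the other Polycomb complex, rose (0.53). Of 27 Polycomb genes, all tested, 6 rose, 7 fell and 14 were not called (median 0.006), so that no direction held across them. RING1, PHC2 and EED were among the others that rose, and JARID2 and RBBP4 among the others that fell. Of the 25 stem and progenitor genes listed only 13 could be tested, with 4 higher and 6 lower: HHEX, a homeobox factor of early progenitors, rose (0.84) and GATA2 fell (-1.16).

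Myeloid transcription factors moved in both directions, 14 higher and 6 lower of 29 tested (median 0.33). SPI1, which encodes PU.1, the factor required in all myeloid cells, was already high and changed little, at 395 and 384 CPM with DMSO and 470.2 and 462 CPM with SGC0946 (log2 fold change 0.26, SE 0.06, adjusted p = 4.80e-04). CEBPA, the C/EBP factor that starts granulocyte and monocyte commitment, was slightly lower (-0.25). It shares 43.4% of its exonic bases with other genes, the largest part with AC008738.3. CEBPB, linked to monocyte maturation and emergency granulopoiesis, stood at 139.9 and 137 CPM with DMSO and 250.3 and 259.9 CPM with SGC0946 (log2 fold change 0.88, SE 0.07, adjusted p = 2.70e-13), with 11.8% of its exonic bases shared, the largest part with CEBPB-AS1. CEBPE (ENSG00000092067, chr14:23117304-23119616, minus strand), the factor of late granulocyte maturation, was at 40.8 and 36.3 CPM with DMSO and 116 and 110.4 CPM with SGC0946 (log2 fold change 1.55, SE 0.07, adjusted p = 9.59e-19). ID2, an inhibitor of E-box factors, showed a larger rise, at 8.71 and 8.03 CPM with DMSO and 74.5 and 75.7 CPM with SGC0946 (log2 fold change 3.16, SE 0.14, adjusted p = 3.76e-20). KLF4 (2.04), a monocyte factor, and PRDM1 (1.77), a repressor of terminal differentiation programmes, rose. GFI1, which restrains the monocyte side of the granulocyte choice, fell, at 165 and 151 CPM with DMSO and 83.0 and 75.2 CPM with SGC0946 (log2 fold change -1.003, SE 0.07, adjusted p = 9.41e-15). IRF8, which favours monocytes and dendritic cells, also fell (-0.58).

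Genes of mature monocytes and macrophages rose widely: 29 of 34 tested members of that list were higher and 2 lower, with a median log2 fold change of 1.57. CD14 (ENSG00000170458, chr5:140631728-140633701, minus strand), the lipopolysaccharide co-receptor that defines classical monocytes, went from a low level to a high one, at 8.65 and 8.56 CPM with DMSO and 546 and 566 CPM with SGC0946 (log2 fold change 6.01, SE 0.09, adjusted p = 1.72e-33). ITGAM, the integrin chain CD11b, was at 5.54 and 6.81 CPM with DMSO and 202 and 204 CPM with SGC0946 (log2 fold change 5.05, SE 0.11, adjusted p = 2.65e-28). Its partner chain ITGB2, already abundant, rose by less (1.53). LYZ, the lysozyme gene, had the largest gain in CPM of any protein-coding gene, at 389.9 and 322 CPM with DMSO and 9453 and 9246 CPM with SGC0946 (log2 fold change 4.71, SE 0.17, adjusted p = 3.09e-08). It shares 34.0% of its exonic bases with other genes, the largest part with AC020656.1. MPEG1, a pore-forming protein of macrophages, stood at 4.23 and 5.83 CPM with DMSO and 309 and 342 CPM with SGC0946 (log2 fold change 6.03, SE 0.11, adjusted p = 3.21e-31). The scavenger receptor CD36 (5.50), the fungal receptor CLEC7A (4.90), the lectin FCN1 (5.03) and osteopontin, SPP1 (3.26), rose as well. CSF1R, the receptor that macrophages need, was expressed with DMSO and rose by less, at 68.9 and 59.7 CPM with DMSO and 159 and 169 CPM with SGC0946 (log2 fold change 1.34, SE 0.13, adjusted p = 3.79e-06). CD4 (-0.32) and MS4A7 (-0.30), both found on monocytes, were the 2 members that fell, and the call of MS4A7 was lost without DMSO replicate 1 (edgeR adjusted p = 0.0512).

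Receptors of pathogens and immune complexes followed. Of 25 tested Toll-like receptor and inflammasome genes 18 rose and 3 fell (median 1.66). TLR8, a sensor of RNA in endosomes, was at 8.28 and 7.50 CPM with DMSO and 155 and 159.5 CPM with SGC0946 (log2 fold change 4.31, SE 0.11, adjusted p = 4.32e-27). TLR4, which signals with CD14, was at 47.5 and 42.0 CPM with DMSO and 195 and 196 CPM with SGC0946 (log2 fold change 2.12, SE 0.08, adjusted p = 1.55e-22). The adaptor MYD88 (1.66) and CASP1, the inflammasome protease (1.28), rose too. NLRP3, the best known inflammasome sensor, fell, at 268 and 265 CPM with DMSO and 172 and 182 CPM with SGC0946 (log2 fold change -0.59, SE 0.06, adjusted p = 1.78e-10). GSDMD, the pore of pyroptosis, was another that fell (-0.34). Of 12 Fc receptor genes tested 9 rose and 2 fell, and 1 was lower when either DMSO library or SGC0946 replicate 1 was left out. FCER1G, the shared signalling chain, rose (2.41). FCGR1A, the high-affinity IgG receptor, fell, at 177 and 189.8 CPM with DMSO and 86.2 and 92.9 CPM with SGC0946 (log2 fold change -1.03, SE 0.07, adjusted p = 5.27e-15). FCGR genes have close copies, and FCGR1A shares 24.6% of its exonic bases with other genes, the largest part with AC243772.2, so their reads may be split. In the LILR, SIGLEC, CD300 and TREM families, paired activating and inhibitory receptors of myeloid cells that also hold close copies, 25 of 29 tested genes rose and 2 fell (median 2.65). TREM1, an amplifier of inflammatory signals, was at 26.2 and 27.8 CPM with DMSO and 116 and 122 CPM with SGC0946 (log2 fold change 2.14, SE 0.09, adjusted p = 8.26e-20). The 2 that fell were LILRB4 (-0.85) and LAIR1 (-0.53), both inhibitory receptors. LILRB4 shares 12.96% of its exonic bases with other genes, the largest part with VN1R105P.

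The oxidase of phagocytes makes superoxide with a membrane core and cytosolic subunits, and 5 of its 6 genes rose. The membrane core CYBB stood at 156 and 145 CPM with DMSO and 1019.7 and 974 CPM with SGC0946 (log2 fold change 2.73, SE 0.07, adjusted p = 1.36e-27). NCF1, a cytosolic subunit, was at 18.1 and 19.0 CPM with DMSO and 164 and 171 CPM with SGC0946 (log2 fold change 3.18, SE 0.10, adjusted p = 1.90e-21). RAC2, the GTPase of the complex, was the gene that fell (-0.39). NCF1 has near-identical pseudogenes, so its reads may be split. Of 25 chemoattractant and chemokine receptors tested, 23 rose and none fell (median 1.94). FPR1 (ENSG00000171051, chr19:51745172-51804110, minus strand), the receptor of bacterial formyl peptides, was near 0 with DMSO, at 0.933 and 1.82 CPM with DMSO and 142 and 146 CPM with SGC0946 (log2 fold change 6.75, SE 0.15, adjusted p = 2.55e-28). C5AR1, the receptor of complement fragment C5a, was at 2.74 and 3.71 CPM with DMSO and 56.4 and 60.0 CPM with SGC0946 (log2 fold change 4.19, SE 0.17, adjusted p = 1.20e-20). CCR2, which brings monocytes out of the marrow, was at 11.8 and 13.9 CPM with DMSO and 132 and 141 CPM with SGC0946 (log2 fold change 3.41). CXCR2, the neutrophil receptor of CXCL8, stood at 14.7 and 14.3 CPM with DMSO and 110.1 and 106 CPM with SGC0946 (log2 fold change 2.89). In all 4 receptors the lowest SGC0946 library was far above the highest DMSO library.

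Granule genes were read in 2 lists, by the stage at which the granules are filled. Primary granules are filled at the promyelocyte stage, and of 14 tested genes of their contents 8 rose and 4 fell, with a median of 0.23. With the guides as replicates in 4 groups these were 4 and 2, and the calls of CTSG (edgeR adjusted p = 0.234) and ELANE (adjusted p = 0.24) were lost. The 4 that fell were serine protease family members or relatives: CTSG, ELANE, AZU1 and PRSS57. CTSG, cathepsin G, was at 557 and 555 CPM with DMSO and 274 and 275 CPM with SGC0946 (log2 fold change -1.02, SE 0.13, adjusted p = 1.58e-04). PRSS57 was at 139 and 141 CPM with DMSO and 37.0 and 37.0 CPM with SGC0946 (log2 fold change -1.92, SE 0.07, adjusted p = 1.01e-22). ELANE, neutrophil elastase (-0.64), and AZU1, azurocidin (-0.52), fell by less. MPO, the peroxidase of the same granules, rose instead, at 72.9 and 53.5 CPM with DMSO and 386 and 334 CPM with SGC0946 (log2 fold change 2.503, SE 0.17, adjusted p = 9.37e-06). BPI, which kills Gram-negative bacteria, rose as well (1.602). Of 20 tested genes of the secondary and tertiary granules, which are filled later, 19 rose and none fell, with a median of 3.62, or 3.47 with CD177, unseen with DMSO, set at its lower bound. ORM1 was the gene not called. With the guides as replicates 15 of the 20 were higher and none lower. The summed level of all 24 listed genes rose by less than the median gene. It was 2665 and 1793 CPM with DMSO, where the 2 libraries lay far apart, and 3580 and 3473 CPM with SGC0946. MMP9, the gelatinase, was at 14.997 and 13.1 CPM with DMSO and 424 and 439 CPM with SGC0946 (log2 fold change 4.93, SE 0.10, adjusted p = 1.15e-27), with 18.4% of its exonic bases shared, the largest part with SLC12A5-AS1. CHI3L1, a granule lectin, was at 23.9 and 19.2 CPM with DMSO and 499 and 503 CPM with SGC0946 (log2 fold change 4.53, SE 0.10, adjusted p = 4.88e-21). PADI4, the enzyme that citrullinates histones in neutrophils, stood at 17.4 and 18.5 CPM with DMSO and 217 and 200.1 CPM with SGC0946 (log2 fold change 3.54, SE 0.09, adjusted p = 2.16e-27). CAMP, the precursor of the antimicrobial peptide LL-37, stayed low, at 0.436 and 0.0757 CPM with DMSO and 12.1 and 12.8 CPM with SGC0946 (log2 fold change 5.48, SE 0.43, adjusted p = 5.13e-13).

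Of 13 S100 genes tested 9 rose and 2 fell (median 1.13), and none was lower when DMSO replicate 1 or either SGC0946 library was left out, and 1 without DMSO replicate 2. The calcium-binding alarmins S100A8 and S100A9 were among the largest gains in CPM. S100A8 was at 226 and 189 CPM with DMSO and 2727 and 2499 CPM with SGC0946 (log2 fold change 3.65, SE 0.27, adjusted p = 3.60e-05). S100A9 was at 1130.2 and 1044 CPM with DMSO and 6978 and 6571 CPM with SGC0946 (log2 fold change 2.64, SE 0.21, adjusted p = 4.37e-05). S100A12, their neighbour on chromosome 1, was at 10.4 and 7.80 CPM with DMSO and 351 and 357 CPM with SGC0946 (log2 fold change 5.27, SE 0.11, adjusted p = 5.81e-28).

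**Figure D4:**
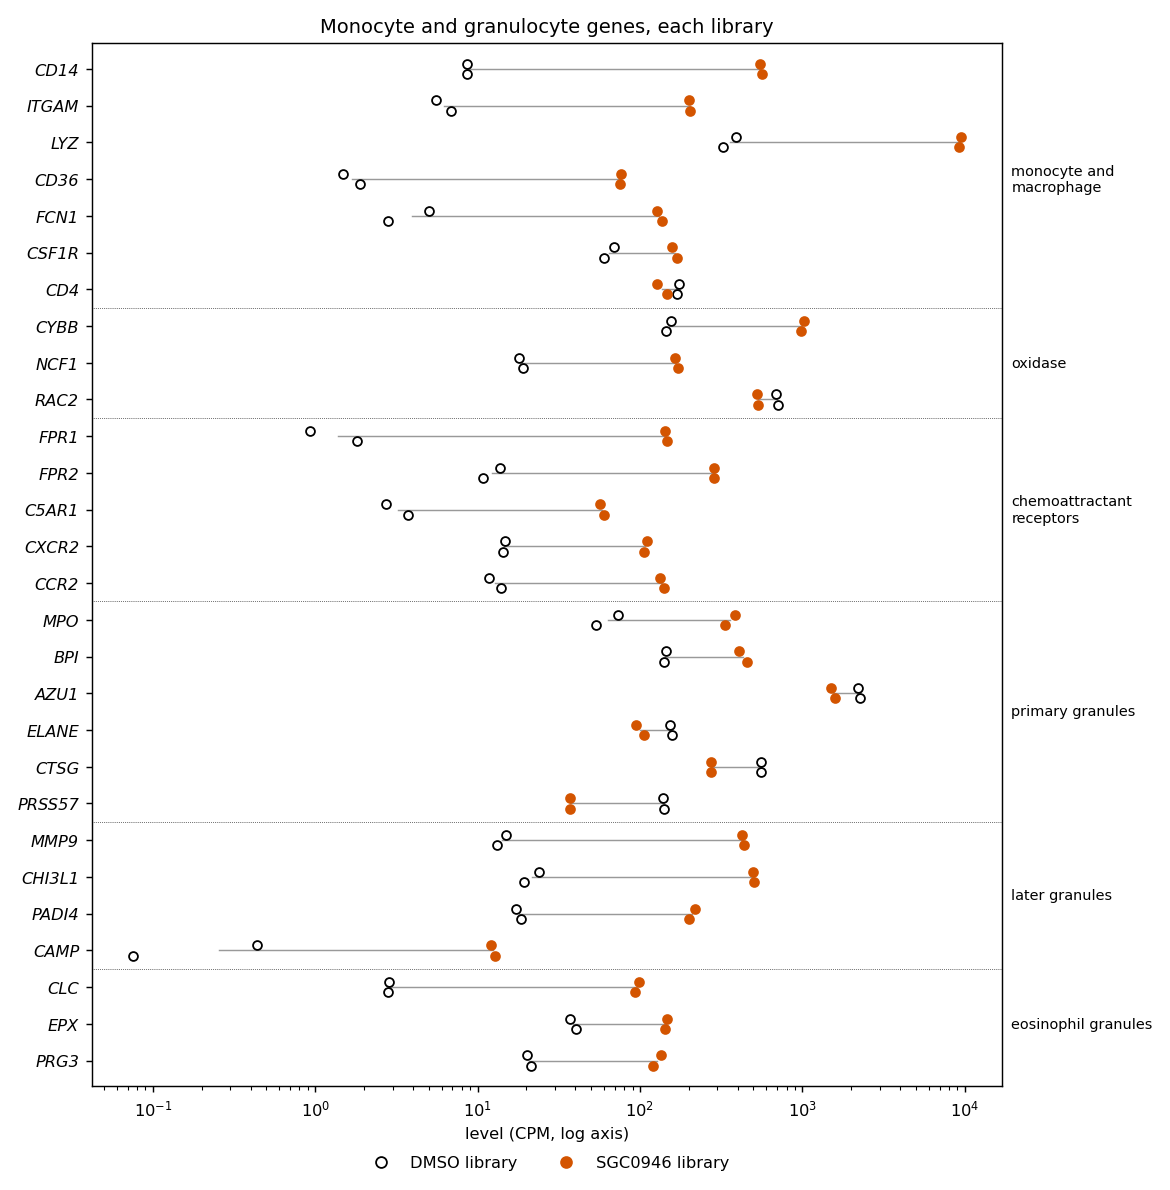
Level in each sgLuc library (CPM, log axis) of monocyte, oxidase, chemoattractant receptor and granule genes, with open circles for DMSO, filled circles for SGC0946 and grey lines joining the group means. The SGC0946 circles lie to the right for every gene drawn except CD4, RAC2, AZU1, ELANE, CTSG and PRSS57, and no gene drawn has overlapping groups.

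Genes of other granulocyte lineages moved with this programme. The 12 markers of mast cells, basophils and eosinophils summed to 68.1 and 72.7 CPM with DMSO and 389 and 365 CPM with SGC0946, with IL5RA at 0 in all 4 libraries, and in the sgUTX cells to 14.8 to 19.95 CPM and 54.9 to 153 CPM. Of 9 tested, 6 rose and 2 fell, or 6 and 1 without DMSO replicate 2 or SGC0946 replicate 1. CLC, the crystal protein of eosinophils and basophils, was at 2.86 and 2.80 CPM with DMSO and 99.1 and 93.1 CPM with SGC0946 (log2 fold change 5.08, SE 0.15, adjusted p = 1.71e-24). EPX, the eosinophil peroxidase, was at 36.8 and 40.4 CPM with DMSO and 146 and 142 CPM with SGC0946 (log2 fold change 1.90, SE 0.09, adjusted p = 1.10e-16). PRG3, an eosinophil granule protein, was at 20.2 and 21.3 CPM with DMSO and 135 and 120.2 CPM with SGC0946 (log2 fold change 2.62, SE 0.10, adjusted p = 3.16e-20). The mast cell tryptase TPSAB1 and the IgE receptor chain MS4A2 were the 2 that fell. Of 14 dendritic cell markers 6 could be tested, 3 higher and 2 lower. CLEC10A, a lectin of conventional dendritic cells, rose, at 0.747 and 0.530 CPM with DMSO and 13.2 and 12.6 CPM with SGC0946 (log2 fold change 4.30, SE 0.34, adjusted p = 7.71e-13). CLEC9A, a receptor for dead cells, fell, at 27.8 and 31.6 CPM with DMSO and 6.94 and 7.49 CPM with SGC0946 (log2 fold change -2.04, SE 0.14, adjusted p = 1.35e-14). Whether these genes rose in the same cells as the monocyte and neutrophil genes was not tested, since the RNA is bulk.

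Several of the largest changes belong to genes outside the groups above. SLPI (ENSG00000124107, chr20:45252239-45254564, minus strand), a secreted inhibitor of neutrophil elastase, was at 4.67 and 4.54 CPM with DMSO and 371 and 352 CPM with SGC0946 (log2 fold change 6.29, SE 0.25, adjusted p = 3.02e-07). LRRK2, a large kinase expressed in monocytes and known from Parkinson disease, stood at 11.2 and 8.63 CPM with DMSO and 574 and 565 CPM with SGC0946 (log2 fold change 5.83, SE 0.09, adjusted p = 7.74e-33). CFP, which encodes properdin, the stabiliser of the alternative complement pathway, was at 2.36 and 2.498 CPM with DMSO and 139 and 142 CPM with SGC0946 (log2 fold change 5.85, SE 0.13, adjusted p = 2.40e-28). VNN1, an enzyme of coenzyme A breakdown, was at 1.12 and 1.29 CPM with DMSO and 66.4 and 72.4 CPM with SGC0946 (log2 fold change 5.85, SE 0.20, adjusted p = 2.81e-23). PLXDC2, a membrane protein of the plexin domain family, also rose (5.06). In these 5 genes no DMSO library came near an SGC0946 library. Among the falls, MYLK4, a kinase of the myosin light chain family, was at 25.1 and 29.8 CPM with DMSO and 1.27 and 3.27 CPM with SGC0946 (log2 fold change -3.57, SE 0.22, adjusted p = 5.94e-13). CLEC2A, a lectin related to ligands of natural killer cells, was at 37.8 and 36.4 CPM with DMSO and 4.17 and 4.82 CPM with SGC0946 (log2 fold change -3.04, SE 0.13, adjusted p = 1.69e-20). REEP2 (-3.11), MFAP4 (-2.80) and SLC29A4, a monoamine transporter (-2.99), fell as well.

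The largest changes of long non-coding RNA genes lay partly beside genes already named. ITGB2-AS1, antisense to ITGB2, was at 2.43 and 1.06 CPM with DMSO and 38.0 and 34.0 CPM with SGC0946 (log2 fold change 4.32, SE 0.25, adjusted p = 8.70e-15). It shares 13.5% of its exonic bases with other genes, the largest part with ITGB2. SATB1-AS1 was at 20.1 and 20.7 CPM with DMSO and 3.44 and 3.16 CPM with SGC0946 (log2 fold change -2.63, SE 0.18, adjusted p = 7.25e-15). MEF2C-AS1 was at 9.33 and 10.98 CPM with DMSO and 1.33 and 2.11 CPM with SGC0946 (log2 fold change -2.55, SE 0.26, adjusted p = 3.72e-10), so that both were lower like the genes they are named for. MEF2C, far more abundant, shares 5.36% of its exonic bases with other genes, the largest part with MEF2C-AS1. Reads of MEF2C may thus be counted with MEF2C-AS1 if the counting did not use strand. In CPM, 2 actins moved apart: ACTB was at 7027 and 6816 CPM with DMSO and 8511 and 8439 CPM with SGC0946 (log2 fold change 0.29, SE 0.06, adjusted p = 1.63e-04). ACTG1 was at 8337 and 8314 CPM with DMSO and 6189 and 6357 CPM with SGC0946 (log2 fold change -0.41, SE 0.06, adjusted p = 7.05e-07).

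The promoters of these genes were read to show what sequence lay before the starts of members that rose or fell together. Windows of 300 bases, from 250 before to 50 after the start, came from RefSeq on GRCh38.p14 and matched 9854 of the 12460 distinct symbols among the protein-coding genes tested (79.1%). Where a symbol had several windows, only the first listed was used. They were searched on both strands for the C/EBP core TTGCNNAA and the PU.1 core GAGGAAGT, which can overlap by a base or so at their ends and were counted separately. The C/EBP core stood in 7.20% of all these windows, in 9.56% of those of genes higher by at least 2-fold, in 9.25% of those lower by at least 2-fold and in 23 of 127 (18.1%) of those higher by at least 16-fold. For the PU.1 core the shares were 2.68%, 5.16%, 1.29% and 7.09%. The windows also differed in CpG content, with a median of 26 CpG sites over all genes tested, 16 for genes higher by at least 2-fold, 24 for genes lower by at least 2-fold and 6 for genes higher by at least 16-fold. Over all 35116 promoters of the table, not limited to genes tested or to a single window per symbol, the shares were 10.5% for C/EBP and 2.59% for PU.1. Of the 1241 genes higher by at least 2-fold, 700 were among the 2492 with the lowest levels in the sgUTX libraries. The C/EBP core stood in 8.81% of these 2492 genes' windows, with 10.7% for members at least 2-fold higher and 10% for those lower. The PU.1 core stood in 2.67%, 4.83% and 1.43%, and the median CpG counts were 19, 12 and 21. Genes higher by at least 16-fold were not compared at matched level. These shares are descriptions with no test, and a match is not a bound site. The windows below are shown for 3 genes that rose and hold a match, for CD14, which rose and holds neither, and for HOXA9, which fell and holds neither. All lie on the minus strand and are printed 5′ to 3′, with matches to either core in capitals.
S100A12, chr1:153375572-153375871, 1 CpG site, C/EBP core: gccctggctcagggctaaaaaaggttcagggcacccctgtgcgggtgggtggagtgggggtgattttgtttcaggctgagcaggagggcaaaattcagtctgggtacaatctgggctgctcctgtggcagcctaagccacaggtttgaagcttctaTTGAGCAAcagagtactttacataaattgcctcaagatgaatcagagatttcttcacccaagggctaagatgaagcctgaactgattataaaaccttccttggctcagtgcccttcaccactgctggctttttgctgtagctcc
CLEC4E, chr12:8540856-8541155, 2 CpG sites, C/EBP core: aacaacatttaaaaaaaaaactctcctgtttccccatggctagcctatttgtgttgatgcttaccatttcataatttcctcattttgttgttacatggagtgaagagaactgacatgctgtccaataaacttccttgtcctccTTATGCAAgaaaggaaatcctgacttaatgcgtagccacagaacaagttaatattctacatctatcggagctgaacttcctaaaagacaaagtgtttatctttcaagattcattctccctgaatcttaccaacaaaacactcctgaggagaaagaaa
NLRP12, chr19:53824265-53824564, 5 CpG sites, PU.1 core and then C/EBP core: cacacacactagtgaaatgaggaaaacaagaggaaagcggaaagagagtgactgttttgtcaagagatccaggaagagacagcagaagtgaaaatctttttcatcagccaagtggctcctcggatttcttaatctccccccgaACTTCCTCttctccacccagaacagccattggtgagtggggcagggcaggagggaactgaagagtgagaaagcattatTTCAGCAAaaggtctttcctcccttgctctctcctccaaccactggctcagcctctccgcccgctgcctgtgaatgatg
CD14, chr5:140633126-140633425, 8 CpG sites: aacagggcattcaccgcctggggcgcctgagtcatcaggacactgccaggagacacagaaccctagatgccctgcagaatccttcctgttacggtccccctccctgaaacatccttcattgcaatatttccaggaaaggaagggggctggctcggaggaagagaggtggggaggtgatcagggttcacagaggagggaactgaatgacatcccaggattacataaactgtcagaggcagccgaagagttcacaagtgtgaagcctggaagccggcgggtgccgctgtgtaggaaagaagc
HOXA9, chr7:27165488-27165787, 22 CpG sites: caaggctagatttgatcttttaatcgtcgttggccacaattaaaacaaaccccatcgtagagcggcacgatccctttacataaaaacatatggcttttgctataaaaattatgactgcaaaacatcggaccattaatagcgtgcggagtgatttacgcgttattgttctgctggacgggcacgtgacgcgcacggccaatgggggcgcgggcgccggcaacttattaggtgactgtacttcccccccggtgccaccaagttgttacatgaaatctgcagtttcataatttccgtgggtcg
Of the genes shown, CLEC4E, a receptor of mycobacterial glycolipid, was at 0.996 and 1.21 CPM with DMSO and 26.5 and 29.7 CPM with SGC0946 (log2 fold change 4.68, SE 0.25, adjusted p = 1.16e-17). NLRP12, a regulator of inflammatory signalling, was at 2.55 and 2.04 CPM with DMSO and 49.7 and 44.2 CPM with SGC0946 (log2 fold change 4.33, SE 0.30, adjusted p = 9.60e-07).

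Cytokine genes and their receptors mostly rose. Of 26 tested cytokines and chemokines 18 rose and 4 fell (median 1.71), or 17 and 2 without DMSO replicate 1. Of 36 cytokine receptors 27 rose and 5 fell (median 0.84), or 26 and 3 without SGC0946 replicate 1. CXCL8, which attracts neutrophils, was at 89.5 and 84.1 CPM with DMSO and 567 and 589 CPM with SGC0946 (log2 fold change 2.73, SE 0.07, adjusted p = 1.87e-27). CCL2, the ligand of CCR2, was at 1.93 and 2.80 CPM with DMSO and 89.1 and 85.1 CPM with SGC0946 (log2 fold change 5.22, SE 0.16, adjusted p = 1.80e-24). TNF stood at 12.9 and 14.1 CPM with DMSO and 57.3 and 58.7 CPM with SGC0946 (log2 fold change 2.11, SE 0.18, adjusted p = 1.04e-06). IL1B was at 12.2 and 13.4 CPM with DMSO and 46.8 and 52.95 CPM with SGC0946 (log2 fold change 1.97, SE 0.13, adjusted p = 5.55e-15). CCL5, a chemokine for T cells and monocytes, fell, at 320.1 and 357 CPM with DMSO and 130.02 and 137 CPM with SGC0946 (log2 fold change -1.34, SE 0.07, adjusted p = 1.32e-18). Immediate early genes, which signalling switches on within minutes, rose in 17 of 30 tested and fell in 3 (median 0.43), and JUN, a subunit of AP-1, was at 13.8 and 12.2 CPM with DMSO and 58.6 and 66.7 CPM with SGC0946 (log2 fold change 2.27, SE 0.14, adjusted p = 6.37e-15). IER3, an early response gene, was at 13.6 and 11.1 CPM with DMSO and 55.6 and 52.9 CPM with SGC0946 (log2 fold change 2.13, SE 0.12, adjusted p = 1.22e-16), with 26.5% of its exonic bases shared, the largest part with IER3-AS1.

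Both arms of antigen presentation changed, in opposite directions. Among MHC class II genes 10 could be tested, of which 8 rose (median 1.81); the other 2 did not pass. HLA-DRA, the alpha chain of HLA-DR, was at 57.7 and 61.9 CPM with DMSO and 124 and 141 CPM with SGC0946 (log2 fold change 1.15, SE 0.11, adjusted p = 4.86e-09). HLA-DPA1, the alpha chain of HLA-DP, was at 11.2 and 14.7 CPM with DMSO and 46.5 and 50.9 CPM with SGC0946 (log2 fold change 1.92, SE 0.14, adjusted p = 1.26e-13). CIITA, the coactivator of class II genes, did not pass the test, at 14.3 and 11.4 CPM with DMSO and 17.2 and 14.8 CPM with SGC0946 (log2 fold change 0.31, SE 0.17, adjusted p = 0.129). Its lowest SGC0946 library lay just above its highest DMSO library. Of 14 class I genes 8 fell and 1 rose (median -0.31). HLA-E, which presents leader peptides, was at 3052 and 3281 CPM with DMSO and 1908 and 2035 CPM with SGC0946 (log2 fold change -0.68, SE 0.06, adjusted p = 2.34e-11). HLA-B was lower too (-0.38), with 18.9% of its exonic bases shared, the largest part with AL671883.2. B2M, the light chain, was the gene that rose (0.38). HLA genes are polymorphic and alike, so reads of one may be lost or given to another. Of 31 interferon-stimulated genes tested 21 rose and 1, MX1, fell (median 0.65), against 18 and 0 with DESeq2. When 1 sgLuc library was left out, the median ran from 0.56 (without DMSO replicate 2) to 0.84 (without DMSO replicate 1). OAS3, a sensor of double-stranded RNA, was at 0.809 and 1.29 CPM with DMSO and 17.4 and 16.6 CPM with SGC0946 (log2 fold change 4.04, SE 0.31, adjusted p = 2.46e-13). Of 21 tested surface proteins that antibodies or engineered T cells target in leukemia, 13 rose and 6 fell. CD33 rose (0.51), as did VSIR (VISTA, 1.19) and CD244 (1.22), and IL3RA (CD123) fell (-0.66).

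Cell cycle genes did not move as one group. Of 35 DNA replication and S phase genes, all tested, 27 rose and 2 fell, with a median of 0.57. RRM2, the limiting subunit of the enzyme that makes deoxynucleotides, was at 44.2 and 37.0 CPM with DMSO and 145 and 131 CPM with SGC0946 (log2 fold change 1.76, SE 0.08, adjusted p = 1.05e-19), with 20.2% of its exonic bases shared, the largest part with AC007240.1. PCNA, the sliding clamp, was at 138 and 137 CPM with DMSO and 246 and 242 CPM with SGC0946 (log2 fold change 0.83, SE 0.06, adjusted p = 5.10e-14). CCNE2, which with CDK2 starts S phase, was at 4.48 and 3.79 CPM with DMSO and 19.4 and 17.5 CPM with SGC0946 (log2 fold change 2.15, SE 0.15, adjusted p = 1.22e-14), with 37.1% of its exonic bases shared, the largest part with INTS8. CDT1, the origin licensing factor, was 1 of the 2 that fell, at 372 and 359.6 CPM with DMSO and 174 and 182 CPM with SGC0946 (log2 fold change -1.04, SE 0.10, adjusted p = 6.19e-07). Of 36 mitosis and G2 genes 9 rose and 12 fell (median -0.11), against 5 and 9 without SGC0946 replicate 2, 6 and 8 without DMSO replicate 2, and 10 and 9 with library size only. MKI67, the proliferation marker, rose (1.11) while UBE2C, a ubiquitin ligase partner of mitotic exit, fell (-0.60). Regulators of the G1 step changed in several ways. CDKN1A, the inhibitor p21, rose, at 16.1 and 17.3 CPM with DMSO and 72.6 and 75.8 CPM with SGC0946 (log2 fold change 2.15, SE 0.11, adjusted p = 3.12e-18). CDKN2C, the inhibitor p18, fell, at 202 and 219.7 CPM with DMSO and 79.9 and 75.1 CPM with SGC0946 (log2 fold change -1.44, SE 0.07, adjusted p = 1.26e-18). CDKN1B, the inhibitor p27, also fell (-0.84). CCND3, a D cyclin, rose, at 230.5 and 224 CPM with DMSO and 548 and 539.6 CPM with SGC0946 (log2 fold change 1.26, SE 0.06, adjusted p = 7.25e-19), opposite to the kinase CDK6. Of 26 tested p53 targets 15 rose and 4 fell (median 0.45), and CCNG1, a direct p53 target, was among the 4, at 495 and 486 CPM with DMSO and 185 and 189 CPM with SGC0946 (log2 fold change -1.39, SE 0.06, adjusted p = 1.09e-19). In the BCL2 family, 5 of 17 tested rose and 4 fell. BCL2A1, an anti-death gene that rose as BCL2 fell, was at 47.0 and 55.3 CPM with DMSO and 150.2 and 165 CPM with SGC0946 (log2 fold change 1.63, SE 0.08, adjusted p = 3.89e-18). MCL1 (0.61), another, and PMAIP1 (NOXA), which antagonises MCL1 (1.18), rose too.

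Genes of translation fell together by small amounts. Of 87 cytoplasmic ribosomal protein genes tested 76 fell and 1 rose, with a median of -0.55 and none changed by 2-fold, and their summed share of the counts is given above. The elongation factor EEF2 was at 10561 and 11176 CPM with DMSO and 5484 and 5749 CPM with SGC0946 (log2 fold change -0.95, SE 0.07, adjusted p = 1.77e-14). NPM1, the nucleolar chaperone of ribosome assembly, was at 2538 and 2737 CPM with DMSO and 1422 and 1509 CPM with SGC0946 (log2 fold change -0.85, SE 0.06, adjusted p = 1.73e-13). The ribosomal share of the library moved with the treatment, and its part in the changes of other genes was not tested beyond the scalings compared. Of 77 mitochondrial ribosomal protein genes 41 fell and 2 rose (median -0.27), whereas 12 of the 13 protein genes of the mitochondrial genome rose (median 0.47). Of 29 genes of ribosome biogenesis and the MYC network 17 fell and 6 rose, against 15 and 3 without SGC0946 replicate 1. MXD1, a MYC antagonist of maturing cells, was among those that rose, at 20.5 and 22.9 CPM with DMSO and 55.7 and 59.2 CPM with SGC0946 (log2 fold change 1.41, SE 0.10, adjusted p = 6.20e-14).

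Metabolic and stress genes changed too. Of 28 integrated stress response genes, the set that ATF4 drives when amino acids are short, 20 fell and 3 rose (median -0.54). ATF4 itself fell (-0.61). ATF5, a relative, stood at 479.7 and 546 CPM with DMSO and 96.5 and 115 CPM with SGC0946 (log2 fold change -2.27, SE 0.24, adjusted p = 2.11e-04), with 23.7% of its exonic bases shared, the largest part with NUP62. Enzymes of serine synthesis were among those that fell. PHGDH, the first of the pathway, was at 348 and 379 CPM with DMSO and 121 and 113 CPM with SGC0946 (log2 fold change -1.63, SE 0.14, adjusted p = 1.13e-05). PSAT1 (-1.63) and SHMT2, which turns serine into glycine (-1.36), were lower as well. ASS1, the enzyme that makes the arginine precursor argininosuccinate, was at 582 and 633 CPM with DMSO and 64.7 and 62.1 CPM with SGC0946 (log2 fold change -3.26, SE 0.16, adjusted p = 5.12e-07). Of 34 glycolysis and low-oxygen genes tested 21 fell and 9 rose (median -0.31). GPI, the isomerase that follows hexokinase, was at 932 and 1014 CPM with DMSO and 545 and 598 CPM with SGC0946 (log2 fold change -0.77, SE 0.06, adjusted p = 2.24e-12). HK3, the hexokinase of myeloid cells, was higher, at 19.3 and 17.5 CPM with DMSO and 114 and 107 CPM with SGC0946 (log2 fold change 2.58, SE 0.10, adjusted p = 3.04e-21). Of 34 lysosome genes 22 rose and 4 fell (median 0.51). GRN, which encodes progranulin, was at 416 and 407 CPM with DMSO and 1385 and 1434 CPM with SGC0946 (log2 fold change 1.78, SE 0.06, adjusted p = 4.66e-23). CTSB, a cathepsin, also rose (1.11). Of 30 cholesterol and fatty acid genes 18 rose and 1 fell (median 0.44). Of 5 metallothioneins tested, zinc-binding proteins with close copies, 3 fell, all by at least 2-fold, and 1 rose (median -1.78). The 2 examples were chosen after their values were seen. MT2A was at 256 and 237 CPM with DMSO and 45.7 and 60.4 CPM with SGC0946 (log2 fold change -2.21, SE 0.14, adjusted p = 3.73e-07). MT1F was at 15.2 and 14.5 CPM with DMSO and 54.3 and 52.0 CPM with SGC0946 (log2 fold change 1.84, SE 0.12, adjusted p = 7.89e-15). SAMHD1, which cleaves deoxynucleotides and the active form of cytarabine, rose, at 106 and 98.2 CPM with DMSO and 508 and 523 CPM with SGC0946 (log2 fold change 2.34, SE 0.06, adjusted p = 5.36e-26), with 10.3% of its exonic bases shared, the largest part with TLDC2. ADA, adenosine deaminase, fell, at 105 and 116 CPM with DMSO and 31.0 and 31.4 CPM with SGC0946 (log2 fold change -1.82, SE 0.08, adjusted p = 3.76e-20). Clustered histone genes, whose messages mostly lack a poly(A) tail, took 0.0152% and 0.0349% of counts with DMSO and 0.0136% and 0.0138% with SGC0946, so that the 2 DMSO libraries differed by more than the group means did.

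Set beside the same treatment in cells with a KDM6A guide, which share no library with sgLuc, the sgLuc response held more calls. With sgUTX_2, 2123 genes (14.1%) were higher and 2064 (13.7%) lower, and with sgUTX_4, 2093 (13.9%) and 1880 (12.5%). Of the 4050 genes higher in sgLuc cells, 1352 (33.4%) were also called higher with sgUTX_2, which is 63.7% of that guide's calls, and 326 were called lower. With sgUTX_4 the numbers were 1372 (33.9% and 65.6%) and 230. Of the 3950 genes lower in sgLuc cells 1094 (27.7%, and 53.004% of the guide's calls) were lower with sgUTX_2 and 241 higher. With sgUTX_4 1122 (28.4% and 59.7%) were lower and 211 higher. The test of the difference between the sgLuc response and the mean of both sgUTX responses called 5991 genes (39.8%), 2826 (18.8%) with the more positive response in sgLuc cells and 3165 (21.0%) with the more negative.

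The median over the 8 HOXA genes tested was -1.37 in sgLuc, -1.36 with sgUTX_2 and -1.49 with sgUTX_4, and over the 19 MLL targets outside HOXA it was -1.33, -0.48 and -0.49. Of the 8 HOXA genes 5 passed the test of a difference, against 39.8% of all genes, 2 with the more positive and 3 with the more negative response in sgLuc cells. The difference was 1.36 for HOXA3, -1.53 for HOXA7, -0.37 for HOXA9 and -0.47 for HOXA10. HOXA5 changed by -3.57 with sgUTX_2 and -2.93 with sgUTX_4, against -3.23 in sgLuc, with a difference of 0.02 (edgeR adjusted p = 0.962). MEIS1 changed by -1.87 with sgUTX_2 and -2.45 with sgUTX_4, less than in sgLuc (difference -2.77, adjusted p = 3.45e-11), and MEF2C by -2.07 with sgUTX_2 and -2.16 with sgUTX_4, more than in sgLuc (difference 0.56, adjusted p = 2.12e-07). Several genes that rose in sgLuc cells had values near or below 0 with the KDM6A guides. The log2 fold change of CEBPE was -0.44 with sgUTX_2 and -0.08 with sgUTX_4, that of NCF1 0.03 with sgUTX_2 and -0.07 with sgUTX_4, that of C5AR1 -0.25 with sgUTX_2 and -0.11 with sgUTX_4, and that of TNF -1.15 with sgUTX_2 and -1.49 with sgUTX_4. The differences were 1.81, 3.19, 4.37 and 3.43 (adjusted p = 1.20e-17, 2.74e-18, 3.58e-17 and 1.26e-07). CDKN1A changed by -0.55 with sgUTX_2 and -0.79 with sgUTX_4 (difference 2.82, adjusted p = 3.02e-17). For DNA replication genes the medians were 0.57 in sgLuc, -0.22 and -0.14 with the KDM6A guides, and 31 of 35 had a more positive response in sgLuc cells. Their summed level stayed lower in sgLuc cells, at 3115 and 3007 CPM with DMSO and 3778 and 3742 CPM with SGC0946. In sgUTX cells it was 5633 to 6022 CPM with DMSO and 5158 to 5321 CPM with SGC0946. For immediate early genes the medians were 0.43, -0.21 and -0.25, with 20 of 30 more positive. The MHC class II genes stood the other way in log2 fold change, with medians of 1.81, 2.93 and 3.10. HLA-DRA changed by 4.26 with sgUTX_2 and 3.34 with sgUTX_4 (difference -2.65, adjusted p = 5.09e-10). Their levels were lower with the KDM6A guides. The 13 listed genes summed to 219 to 249 CPM with DMSO and 409 to 506 CPM with SGC0946 in sgUTX cells. In sgLuc cells they summed to 870 and 916 CPM with DMSO and 1224 and 1262 CPM with SGC0946. TLR8 (3.92 with sgUTX_2 and 4.74 with sgUTX_4, difference -0.02, adjusted p = 0.93) and MPO (2.48 with sgUTX_2 and 2.03 with sgUTX_4, difference 0.25, adjusted p = 0.392) rose with all guides and did not pass the test of a difference.

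**Figure D5:**
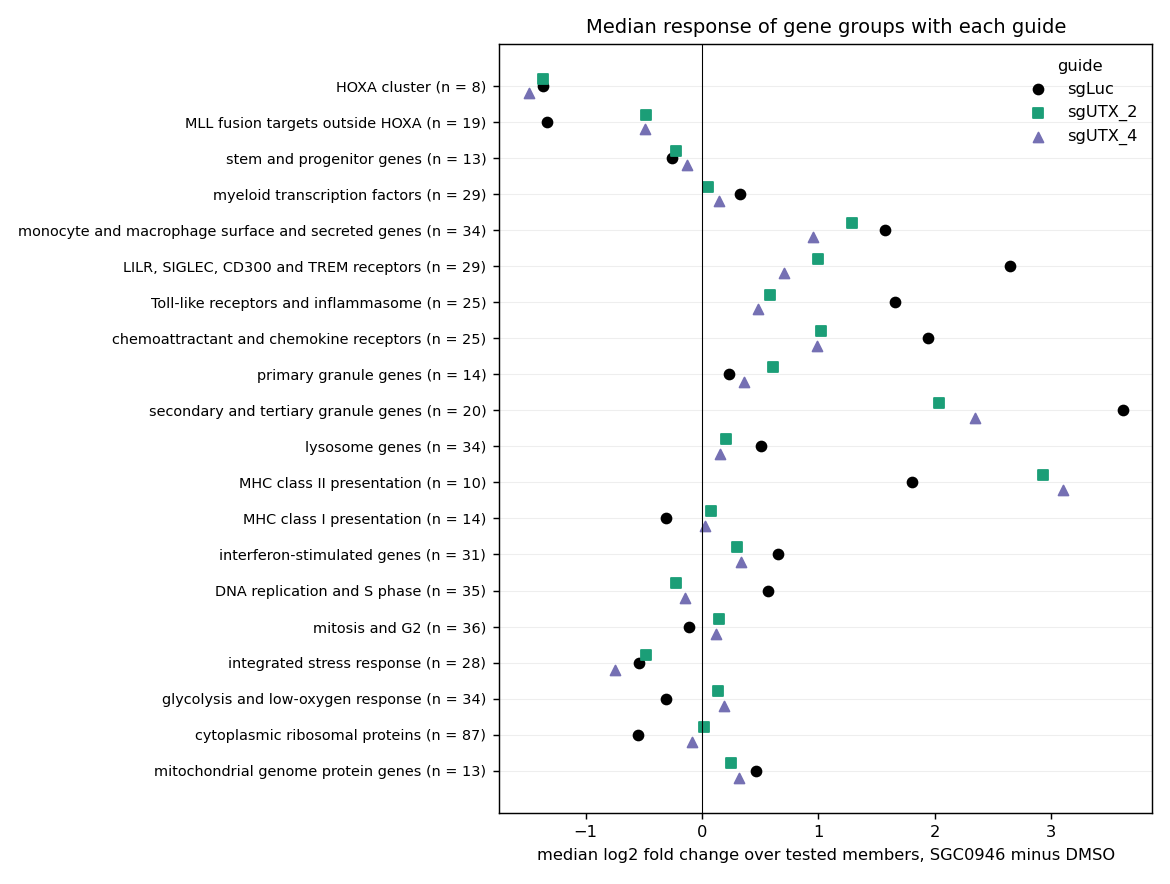
Median log2 fold change of SGC0946 against DMSO over the tested members of the 20 gene groups, for sgLuc (black circles), sgUTX_2 (green squares) and sgUTX_4 (purple triangles), each from its own libraries. The medians of the 3 guides lie close for the HOXA cluster, of whose 8 genes 5 passed the test of a difference in both directions, while for DNA replication genes sgLuc lies at 0.57 and the KDM6A guides at -0.22 and -0.14.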

How the data were processed

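Total RNA was prepared for paired-end sequencing with 150-base reads, per the labels' protocols. The deposited table holds raw counts per gene; per the submitters' processing notes reads were aligned with STAR 2.5.1b to hg19. The sources used here do not give the counting program or its use of strand. The 58735 gene identifiers are exactly those of GENCODE 29, whose symbols, GRCh38 coordinates and exons were used. Shared exonic bases were counted on either strand over all other genes, and the gene named with a share is the one with the largest overlap.

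The 12 libraries held 15480493 to 23262141 counts, with TMM factors of 0.854 to 0.934 for sgLuc and 1.03 to 1.07 for sgUTX. Replicates of each group differed by more than counting error (chi-square of 2.85 to 6.29 per gene over genes with at least 20 counts, where 1 is counting error alone), and no 2 columns were identical. The counts were tested with edgeR 4.0.16 (limma 3.58.1, R 4.3.3): filterByExpr, TMM, and a robust quasi-likelihood fit of all 12 libraries as 6 groups, with 6 residual degrees of freedom and a common biological coefficient of variation of 0.057. Each group kept its own term because the guides are not replicates in this contrast. P-values were adjusted by Benjamini-Hochberg over 15060 genes and called under 0.05. On simulated counts for 14537 genes, 76.1% of changes of 1.5-fold, 97.0% of 2-fold and 100% of 4-fold were recovered, with 8 false calls. Every simulated gene had the common variation of 0.057, and only 67, 67 and 66 genes, of at least 1 CPM, were changed. The data hold far more changes and a wider spread for some genes, so these rates need not hold for them. An exact permutation test of a single gene over 2 against 2 libraries cannot give a p below 0.333.

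Named genes were the 15 largest rises and falls with a mean of at least 1 CPM in both groups, the 10 largest gains and losses in CPM, 5 long non-coding RNAs each way, DOT1L, KDM6A and members of 45 gene groups, and those described are examples of these. Members and groups were chosen with earlier results of these data known. Other scalings, filters, designs, a replicate block, DESeq2 1.42.0 and leaving out each library were compared. Results of a few single genes are not reported here.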

Additional observations from a re-analysis of the deposited data

Results flagged for a closer look

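The response to SGC0946 was compared between sgLuc cells and the mean of the sgUTX_2 and sgUTX_4 cells with the edgeR test of the difference itself, and 5991 genes passed at an adjusted p under 0.05. The values in brackets are the sgLuc log2 fold change minus the mean sgUTX log2 fold change, so a negative value is a lower log2 fold change in sgLuc cells. They are given only for genes named or drawn in the report, whose single test each passed, and no cause of any difference was tested.

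Among the MLL fusion targets and progenitor genes the sgLuc response was the more negative for MEIS1 (-2.77), PBX3 (-1.60), RUNX2 (-1.79), CDK6 (-1.01), FLT3 (-0.56), MYB (-0.93), ZEB2 (-1.08), BCL2 (-0.62) and SOCS2 (-3.25), and more positive for MEF2C (0.56), RUNX1 (0.49) and JMJD1C (0.57). In the HOXA cluster it was the more negative for HOXA9 (-0.37), HOXA10 (-0.47) and HOXA7 (-1.53) and more positive for HOXA3 (1.36). The progenitor genes MMRN1 (-3.33), DACH1 (-2.03) and ZNF521 (-1.88) had the more negative response in sgLuc cells, and GATA2 (0.64) and HHEX (0.79) the more positive. The DOT1L partners AFF1 (-0.31) and MLLT3 (-0.74), the signalling factors STAT5A (-1.86) and STAT5B (-0.57) and the Polycomb gene BMI1 (-0.60) were on the negative side, and ELL2 (1.22), EZH2 (0.90) and PIM1 (0.86) on the positive.

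Myeloid factors with the more positive sgLuc response were CEBPB (0.59), CEBPE (1.81), SPI1 (0.30), ID2 (0.70) and KLF4 (1.30), against GFI1 (-0.83) and IRF8 (-0.51) on the negative side. Most monocyte and macrophage genes named had the more positive response in sgLuc cells: CD14 (3.11), ITGAM (2.18), ITGB2 (0.56), CD36 (2.44), CLEC7A (2.17), FCN1 (4.33), LYZ (1.34), SPP1 (1.91) and MPEG1 (4.46). The exceptions among those named were CSF1R (-0.91), CD4 (-0.41) and MS4A7 (-0.55). Sensor and receptor genes on the positive side were TLR4 (0.84), MYD88 (1.03), CASP1 (0.92), NLRP12 (3.88), CLEC4E (3.01), TREM1 (1.86) and FCER1G (1.75), and on the negative side NLRP3 (-0.85), GSDMD (-0.53), LILRB4 (-1.12) and LAIR1 (-0.27). The oxidase subunits CYBB (2.16) and NCF1 (3.19) and the chemoattractant receptors FPR1 (4.19), FPR2 (2.86), C5AR1 (4.37), CCR2 (0.57) and CXCR2 (0.54) also had the more positive response in sgLuc cells. So did the alarmins S100A8 (2.43), S100A9 (1.68) and S100A12 (1.84) and the granule genes CAMP (3.45), CHI3L1 (1.59), MMP9 (0.92), PADI4 (1.89) and BPI (0.29), whereas AZU1 (-0.95), ELANE (-0.97), PRSS57 (-1.07), EPX (-0.34) and CLEC9A (-0.88) had the more negative response.

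Cytokine and signalling genes with the more positive sgLuc response were TNF (3.43), IL1B (2.55), CCL2 (2.84), CXCL8 (1.72), IER3 (2.66), JUN (1.72) and OAS3 (2.88), and CCL5 (-0.79) was negative. The class II genes HLA-DRA (-2.65), HLA-DPA1 (-2.21) and CIITA (-1.98), the class I genes HLA-E (-0.53) and HLA-B (-0.69) and the surface gene CD244 (-1.21) were all on the negative side, and VSIR (0.40) on the positive. Cell cycle genes stood on both sides, with CDKN1A (2.82), CCND3 (1.53), CCNE2 (2.42), RRM2 (1.62), PCNA (0.87) and MKI67 (0.77) positive and CDKN1B (-0.72), CDKN2C (-1.27), CDT1 (-0.60), UBE2C (-0.61) and CCNG1 (-1.33) negative. The BCL2 family genes BCL2A1 (1.75), MCL1 (0.57) and PMAIP1 (1.09) were positive.

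Of metabolic and translation genes, EEF2 (-0.89), NPM1 (-0.76), ATF4 (-0.41), PHGDH (-1.04), PSAT1 (-1.02), SHMT2 (-0.83), ASS1 (-2.18), GPI (-0.97), ADA (-1.83), MT2A (-2.43) and ACTG1 (-0.40) had the more negative sgLuc response and MXD1 (1.02), HK3 (1.17), GRN (0.81), CTSB (1.00) and SAMHD1 (0.96) the more positive. Of the other large changes, SLPI (1.82), LRRK2 (2.66), CFP (1.64), VNN1 (2.90), PLXDC2 (2.10) and ITGB2-AS1 (1.85) were positive and MYLK4 (-2.19), CLEC2A (-1.33), REEP2 (-2.72), MFAP4 (-1.33), SLC29A4 (-3.13), SATB1-AS1 (-2.34) and MEF2C-AS1 (-1.33) negative.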

How the results depend on the processing

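The counts of 4050 higher and 3950 lower genes became 4246 and 3758 with RLE size factors, 4816 and 3152 with library size only, 4327 and 3467 with no filter on low counts, 3995 and 3835 with at least 1 CPM, 3629 and 3187 with DESeq2, 4201 and 4036 in the 4 sgLuc libraries alone, and 3725 and 3641 with the guides as replicates in 4 groups. Leaving out 1 sgLuc library gave 3424 to 3548 higher and 3252 to 3438 lower, where the lone library is assumed to vary like the other groups. With the replicate number as a block there were 4001 higher and 3902 lower. Deviations of same-numbered libraries from their group means correlated at -0.111 to 0.073, so no pairing by number was seen over all genes. A shared batch that touches few genes could not be seen this way.

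Of 1884 values of the 157 genes named or drawn, 1878 kept direction and call, 5 lost the call and 1 (JMJD1C, library size only, adjusted p = 0.0378) gained it. Besides that of MS4A7 given in the report, the losses were CTSG (adjusted p = 0.234), ELANE (0.24) and GATA2 (0.0586) with the guides as replicates, and MS4A7 with library size only (0.0555). The median of the dendritic cell markers, 0.68, turned to -0.059 with the 1 CPM filter, which tests fewer genes, and ran from -0.25 (without SGC0946 replicate 1) to 0.70 when 1 library was left out. That of clustered histones, -1.41, ran from -2.16 to 0.17 (without DMSO replicate 2). The causes were not tested. With 2 libraries a group, changes under 1.5-fold and genes of a few counts are the least certain.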
